A study of Mus musculus with 12 samples.

Results

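The hypoxia-inducible factor (HIF) pathway was followed through 10 genes: Hif1a itself, the prolyl hydroxylases Egln1 and Egln3, and the HIF targets Bnip3, Ankrd37, Pdk1, P4ha1, Vegfa, Kdm3a and Ndrg1. They were picked by name out of 21671 genes in the table, with the fall of Egln3 under respiratory inhibition already known, so every contrast of IACS-010759 with its control is given for these 10 as values with no p, and how many of them pass the threshold used for all genes is only counted. All 10 were among the 9745 genes tested, meaning an RPKM (reads scaled to gene length and library total) of at least 1 in at least 3 of 12 libraries. Ndrg1 met that minimum only just, in 2 untreated libraries and 1 OHT library.

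The cells were FLMycER cells, that is FL5.12, an IL-3-dependent prolymphocytic line of BALB/c mice, carrying a retroviral vector that constitutively expresses MycER, a chimera of MYC that 4-hydroxytamoxifen (OHT) switches on. All 4 groups carried MycER, had IL-3 in the medium and held 3 libraries each: untreated; OHT at 100 nM for 72 h; IACS, given IACS-010759, an inhibitor of complex I of the electron transport chain, at 135 nM for 24 h; and OHT_IACS, given OHT for 48 h and then both. The methods state that cells were moved to low glucose before work with IACS-010759, while the labels speak of normal medium for the groups without it, so whether glucose was equal in all 4 groups is not given in the sources used here. No group without MycER was analysed here, so an action of OHT that does not pass through MycER cannot be told apart from MycER activation.

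HIF is a transcription factor made of a labile alpha subunit and the stable ARNT. When oxygen is at hand, prolyl hydroxylases of the Egln family mark the alpha subunit, the VHL ubiquitin ligase binds the mark, and the subunit is degraded. When oxygen is short, HIF accumulates and binds hypoxia response elements, whose core reads ACGTG or GCGTG, close to genes for glycolysis, mitochondrial turnover, vessel growth and collagen folding. Egln1 and Egln3 are themselves HIF targets, which closes a feedback loop. The hydroxylases use oxygen and 2-oxoglutarate, and mitochondria are the main consumers of oxygen in a cell. MYC with its partner MAX binds the E-box CACGTG, which holds an ACGTG core on each strand.

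The 250 bases before the start of 5 of the genes are printed because these genes carry the 2 patterns described here: lower under IACS-010759 (Egln3, Bnip3, Ankrd37) and higher under OHT (Pdk1, P4ha1). Sequences are from RefSeq on GRCm38.p6, 5′ to 3′ along the gene's strand, at chr12:54203875-54204124 (minus) for Egln3, chr7:138909507-138909756 (minus) for Bnip3, chr8:45999851-46000100 (minus) for Ankrd37, chr2:71872974-71873223 (plus) for Pdk1 and chr10:59323046-59323295 (plus) for P4ha1. Capitals mark ACGTG and GCGTG on either strand, so that a core on the opposite strand reads CACGT or CACGC.
Egln3: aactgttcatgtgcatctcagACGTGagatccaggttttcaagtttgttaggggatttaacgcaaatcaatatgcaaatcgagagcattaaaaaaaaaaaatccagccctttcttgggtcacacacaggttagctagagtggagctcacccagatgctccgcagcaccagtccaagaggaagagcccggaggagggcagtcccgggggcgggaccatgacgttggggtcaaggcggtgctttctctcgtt
Bnip3: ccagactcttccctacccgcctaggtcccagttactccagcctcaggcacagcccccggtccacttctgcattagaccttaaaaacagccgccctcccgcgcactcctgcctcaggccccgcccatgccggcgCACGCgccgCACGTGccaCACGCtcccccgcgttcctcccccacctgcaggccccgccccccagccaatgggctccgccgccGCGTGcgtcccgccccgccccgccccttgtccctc
Ankrd37: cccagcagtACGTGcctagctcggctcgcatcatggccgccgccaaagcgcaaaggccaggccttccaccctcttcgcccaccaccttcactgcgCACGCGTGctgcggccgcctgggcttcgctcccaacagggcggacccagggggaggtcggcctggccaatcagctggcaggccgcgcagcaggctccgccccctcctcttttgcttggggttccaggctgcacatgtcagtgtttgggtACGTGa
Pdk1: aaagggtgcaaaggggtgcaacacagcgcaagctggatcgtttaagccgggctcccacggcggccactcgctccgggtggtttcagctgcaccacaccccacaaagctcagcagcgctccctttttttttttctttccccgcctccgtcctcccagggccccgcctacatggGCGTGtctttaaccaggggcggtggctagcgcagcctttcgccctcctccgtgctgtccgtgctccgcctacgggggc
P4ha1: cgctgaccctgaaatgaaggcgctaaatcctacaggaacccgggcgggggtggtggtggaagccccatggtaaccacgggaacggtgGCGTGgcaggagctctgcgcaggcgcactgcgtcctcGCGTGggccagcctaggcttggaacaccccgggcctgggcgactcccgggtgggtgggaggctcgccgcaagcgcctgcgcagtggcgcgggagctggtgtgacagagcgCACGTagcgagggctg

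Of the 9 genes with a sequence (Ndrg1 had none), 8 held at least 1 core in this window and Vegfa held none, while 38.6% of the windows of 27025 genes held one. ACGTG occurred in 16.5% and GCGTG in 28.3% of all windows. Egln3 had a single ACGTG, whose first base lay at -229 from the start (-1 being the base just before it). Bnip3 held 2 ACGTG and 3 GCGTG matches, and its 2 ACGTG matches were both strands of 1 E-box at -108 to -103. In Ankrd37 there were 2 ACGTG and 2 overlapping GCGTG matches, in Pdk1 1 GCGTG, and in P4ha1 1 ACGTG and 2 GCGTG. The E-box was present in Bnip3 and Hif1a and in 6.04% of all windows. Both the genes that were lower under IACS-010759 and those that were higher under OHT held cores, and a match is no record of binding.

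**Figure D1:**
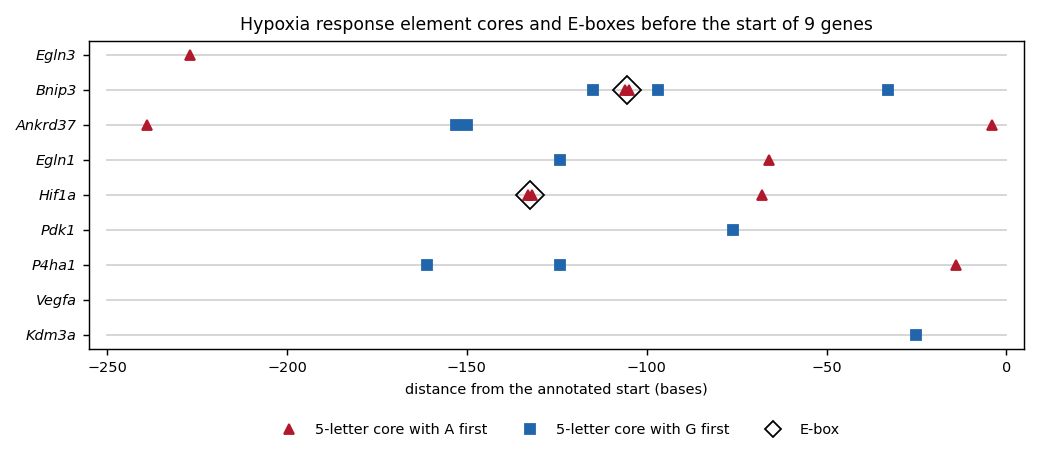
Position of ACGTG (triangles), GCGTG (squares) and the E-box CACGTG (open diamonds) in the 250 bases before the start of 9 genes, by distance from the start in bases. Bnip3 holds 5 cores, Hif1a 3 with its E-box, and Vegfa none.

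Libraries came to between 10376530 and 14550158 reads by the totals recovered from the RPKM steps, of which 4199265 to 5762338 fell on genes, and OHT replicates 1 and 3 were the smallest. A member gene had from 9 reads (Ankrd37) to 1609 reads (Pdk1) in a library. Of the pro-B markers, Ptprc, Cd79b and Cd79a reached an RPKM of 1 in some library, while Pax5 and Il7r were at 0 in all 12 and Vpreb1, Igll1 and Ebf1 stayed under 0.38, so defining B-lineage markers of the labelled cell type were absent. The IL-3 receptor genes Il3ra and Csf2rb were expressed. Klf1, an erythroid transcription factor, had a mean RPKM of 13.3 in untreated, 9.53 in OHT, 6.96 in IACS and 5.10 in OHT_IACS libraries. Of 5 myeloid markers, 3 reached that level, with a summed RPKM of 14.9 to 16.1, 10.2 to 12.5, 12.6 to 15.3 and 9.77 to 10.5 in the same order and Csf1r near 0. Klf1 was lower with either treatment and the myeloid sum lower with OHT, and their part in the values that follow was not tested. In such bulk samples, fewer cells that express a gene and less of its RNA per cell cannot be told apart.

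Egln3, the hydroxylase most strongly induced by HIF in many cell types, had an RPKM of 7.15, 8.14 and 8.29 in the untreated libraries and 8.07, 10.3 and 9.19 with OHT. It was 3.43, 3.54 and 2.45 with IACS and 3.23, 3.23 and 2.92 with OHT_IACS. All 6 libraries given IACS-010759 lay below all 6 others, and the IACS and OHT_IACS libraries overlapped. Group means were 7.86 ± 0.62, 9.20 ± 1.13, 3.14 ± 0.60 and 3.13 ± 0.18 (SD, n = 3) for untreated, OHT, IACS and OHT_IACS. On the scale of log2(RPKM + 0.1), used for every fold change here, the difference was -1.34 ± 0.11 (SE) for IACS vs untreated, to 39.5% of the untreated level, and -1.52 ± 0.11 for OHT_IACS vs OHT, to 34.8%. Ordered by size, it was the 25th lowest of 9745 differences in the former comparison and the 17th lowest in the latter.

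Bnip3, a mitochondrial outer membrane protein that recruits the machinery of mitophagy, had a similar pattern, except that its untreated and OHT libraries did not overlap. Its RPKM was 29.1, 23.7 and 29.3 untreated, 33.6, 34.1 and 36.5 with OHT, 14.3, 15.2 and 12.6 with IACS, and 12.4, 15.8 and 14.0 with OHT_IACS. The 6 libraries with IACS-010759 were again below all others, with a difference of -0.98 ± 0.09 from untreated (50.6% of that level) and of -1.30 ± 0.09 from OHT (40.5%). Ankrd37, a small ankyrin repeat protein whose gene is a direct HIF target, was at 2.92, 2.01 and 3.04 untreated, 2.72, 2.96 and 2.32 with OHT, 0.913, 1.03 and 1.37 with IACS, and 0.82, 0.828 and 1.47 with OHT_IACS. Its differences of -1.22 ± 0.23 and -1.32 ± 0.23 were close to those of Egln3 with larger SEs, and it had the fewest reads of the 10 genes.

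Egln1, the main oxygen sensor of the family, moved less. It read 12.2, 11.1 and 11.3 untreated, 13.0, 16.3 and 14.1 with OHT, 9.55, 9.57 and 8.72 with IACS, and 10.4, 11.3 and 11 with OHT_IACS. IACS libraries were lowest and OHT libraries highest, with OHT_IACS and untreated libraries overlapping in between. The difference was -0.34 ± 0.07 for IACS vs untreated and -0.40 ± 0.07 for OHT_IACS vs OHT.

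Hif1a, the alpha subunit, lay between 15.5 and 18.4 in all 12 libraries, and every pair of neighbouring groups overlapped. Its difference was 0.08 ± 0.05 for IACS vs untreated and -0.03 ± 0.05 for OHT_IACS vs OHT. These are mRNA levels, whereas the hydroxylases act on the protein, which was not measured here.

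**Figure D2:**
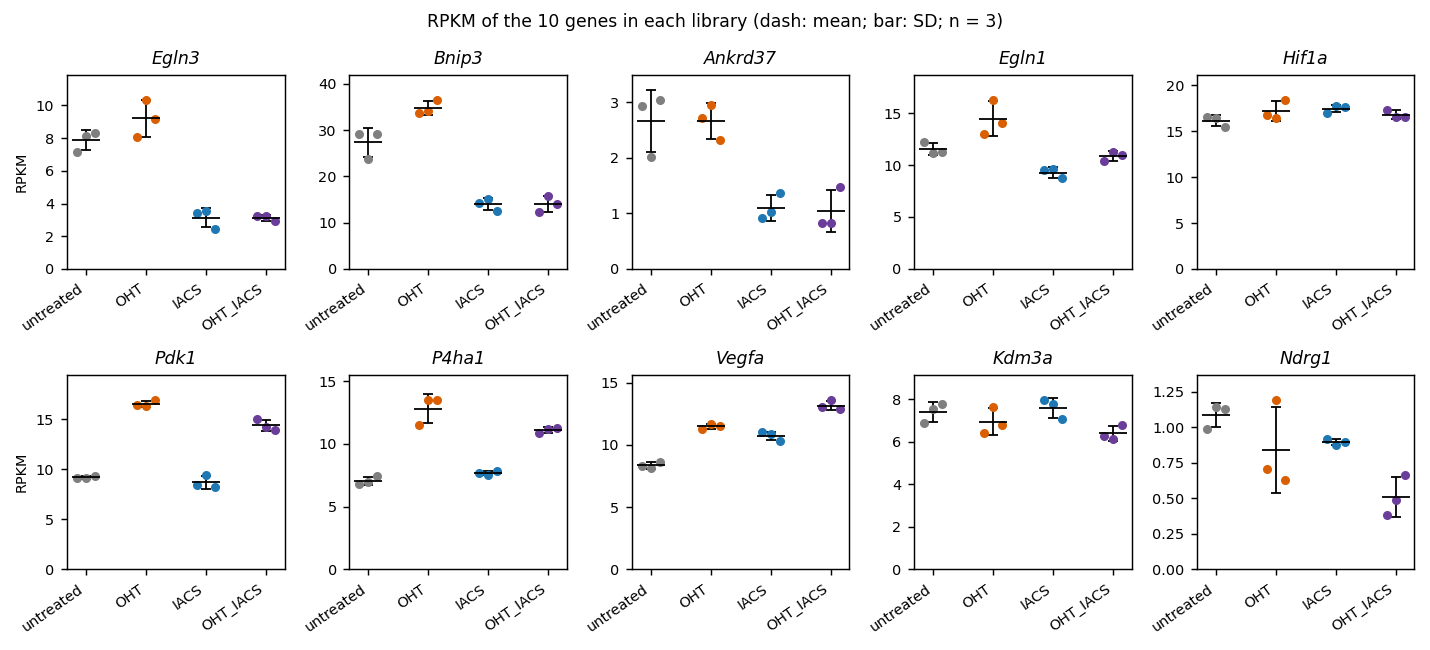
RPKM of the 10 genes in each of 12 libraries (points), with the mean (dash) and SD (bar) of the 3 libraries in each group. Egln3, Bnip3 and Ankrd37 are lower in all 6 libraries given IACS-010759, Pdk1, P4ha1 and Vegfa are higher in all 6 given OHT, and Hif1a is level.

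The remaining targets did not share the pattern of Egln3. Vegfa, the vascular growth factor, was higher with IACS-010759: 8.29, 8.12 and 8.61 untreated, 11, 10.8 and 10.3 with IACS, 11.3, 11.6 and 11.5 with OHT, and 13.0, 13.6 and 12.9 with OHT_IACS. No neighbouring groups overlapped in that order, and the difference was 0.33 ± 0.04 from untreated and 0.20 ± 0.04 from OHT. Pdk1, a kinase that inhibits pyruvate dehydrogenase, had differences of -0.11 ± 0.05 and -0.20 ± 0.05. P4ha1, a catalytic subunit of collagen prolyl 4-hydroxylase, had 0.10 ± 0.06 and -0.20 ± 0.06. Kdm3a, a histone H3K9 demethylase, had 0.01 ± 0.07 and -0.12 ± 0.07, and Ndrg1, a stress-responsive gene, -0.27 ± 0.23 and -0.60 ± 0.23.

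Counted by the threshold used for all genes (limma, Benjamini-Hochberg adjusted p of 0.05), 4 of the 10 were past it and lower in IACS vs untreated (Egln3, Bnip3, Ankrd37, Egln1), where 7.74% of all genes were, and 1 was higher (Vegfa), where 8.15% were. Groups did not overlap for 7 of the 10, against 38.6% of all genes. In OHT_IACS vs OHT 6 were lower (the same 4 with Pdk1 and P4ha1), against 11.8%, and 1 was higher (Vegfa), against 11.9%, and 7 did not overlap, against 36.9%. P4ha1 missed the threshold there without OHT replicate 2 or 3 or OHT_IACS replicate 1 or 2 (log2 -0.17, -0.18, -0.19 and -0.19), and Pdk1 without OHT_IACS replicate 3 (log2 -0.19). These counts describe the choice of the genes, carry no weight of their own and are no test of them.

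OHT vs untreated was not the contrast behind the choice of genes. However, OHT vs untreated and OHT_IACS vs IACS share libraries with the IACS-010759 contrasts, and the choice was made with earlier results known. The p-values of these OHT comparisons are therefore no independent test of the 10 genes. OHT raised 5 of the 10 genes over untreated cells and lowered none, where 18.2% of all tested genes rose and 18.2% fell. The same 5 were those under an unadjusted p of 0.05 in limma, beside 4519 of all 9745 genes. Voom on the recovered reads also called 5, with no share of all genes for that setting. Library weights added Hif1a as higher (log2 0.12, adjusted p = 0.02) and Kdm3a (log2 -0.16, adjusted p = 0.02) and Ndrg1 (log2 -0.68, adjusted p = 0.0045) as lower. Groups did not overlap for 5, against 46% of all genes. Pdk1 was 9.14, 9.08 and 9.35 untreated and 16.4, 16.3 and 16.9 with OHT, a rise of 1.76-fold (log2 0.82 ± 0.05, adjusted p = 1.3e-07). P4ha1 rose 1.77-fold, from 6.81, 6.93 and 7.44 to 11.5, 13.5 and 13.5 (log2 0.83 ± 0.06, adjusted p = 2.5e-07). The lowest OHT library was well above the highest untreated one for both.

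Vegfa rose 1.35-fold (log2 0.43 ± 0.04, adjusted p = 4.1e-06), Egln1 1.22-fold (log2 0.29 ± 0.07, adjusted p = 0.0038) and Bnip3 1.26-fold (log2 0.33 ± 0.09, adjusted p = 0.011). The call for Bnip3 was lost without untreated replicate 2, its lowest untreated library (log2 0.23, adjusted p = 0.057), and with the library total as a covariate (log2 0.32, adjusted p = 0.074), OHT replicates 1 and 3 being the smallest libraries. Egln3 did not pass (log2 0.20, 95% interval -0.04 to 0.44, adjusted p = 0.18), although it did with the library total as a covariate (log2 0.46, adjusted p = 0.0047). For Ankrd37 the interval was wide, from -0.49 to 0.49 around 0.00 (adjusted p = 0.99). Hif1a (log2 0.07, adjusted p = 0.35), Kdm3a (log2 -0.11, adjusted p = 0.22) and Ndrg1 (log2 -0.40, adjusted p = 0.19) did not pass.

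With IACS-010759 present, OHT_IACS vs IACS, 4 of the 10 genes rose and 2 fell, against 12.3% and 14.2% of all genes, and 6 did not overlap, against 42.3%. Pdk1 was 8.43, 9.39 and 8.19 with IACS and 15, 14.2 and 13.9 with OHT_IACS, a rise of 1.66-fold (log2 0.73 ± 0.05, adjusted p = 5.6e-07). P4ha1 rose 1.45-fold, from 7.70, 7.52 and 7.88 to 10.9, 11.2 and 11.3 (log2 0.53 ± 0.06, adjusted p = 2e-05). Both genes were therefore higher with OHT in either setting. Vegfa rose 1.23-fold (log2 0.30 ± 0.04, adjusted p = 0.00014) and Egln1 1.18-fold (log2 0.23 ± 0.07, adjusted p = 0.018).

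Bnip3 differed by log2 0.01 in that comparison, with an interval of -0.18 to 0.20 (adjusted p = 0.96), and Egln3 by 0.02, with an interval of -0.22 to 0.26 (adjusted p = 0.93). Ankrd37 differed by -0.10 with the widest interval of these 3, -0.59 to 0.39 (adjusted p = 0.78). For Hif1a the difference was -0.05 (adjusted p = 0.56).

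Kdm3a fell by 0.24 ± 0.07 on the log2 scale (adjusted p = 0.022), from 7.96, 7.78 and 7.08 to 6.28, 6.11 and 6.80. Ndrg1 fell by 0.73 ± 0.23 (adjusted p = 0.032), from 0.921, 0.877 and 0.899 to 0.385, 0.489 and 0.662, all low levels. Several of these calls were lost under other settings. Egln1 missed the threshold without IACS replicate 3, OHT_IACS replicate 2 or OHT_IACS replicate 3 (log2 0.21 to 0.22, adjusted p = 0.054, 0.058 and 0.061). Kdm3a did so without IACS replicate 1 or 2 or OHT_IACS replicate 1 or 2 (log2 -0.22, -0.23, -0.23 and -0.20, adjusted p = 0.079, 0.063, 0.064 and 0.087). Ndrg1 missed it without any 1 of IACS replicates 1 to 3 or OHT_IACS replicates 1 and 2 (log2 -0.75 to -0.57, adjusted p = 0.069 to 0.12), and also with no filter on low values (adjusted p = 0.053) and with the library total as a covariate (log2 -0.63, adjusted p = 0.054). Without OHT_IACS replicate 2, 3 of the 10 genes were called.

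**Figure D3:**
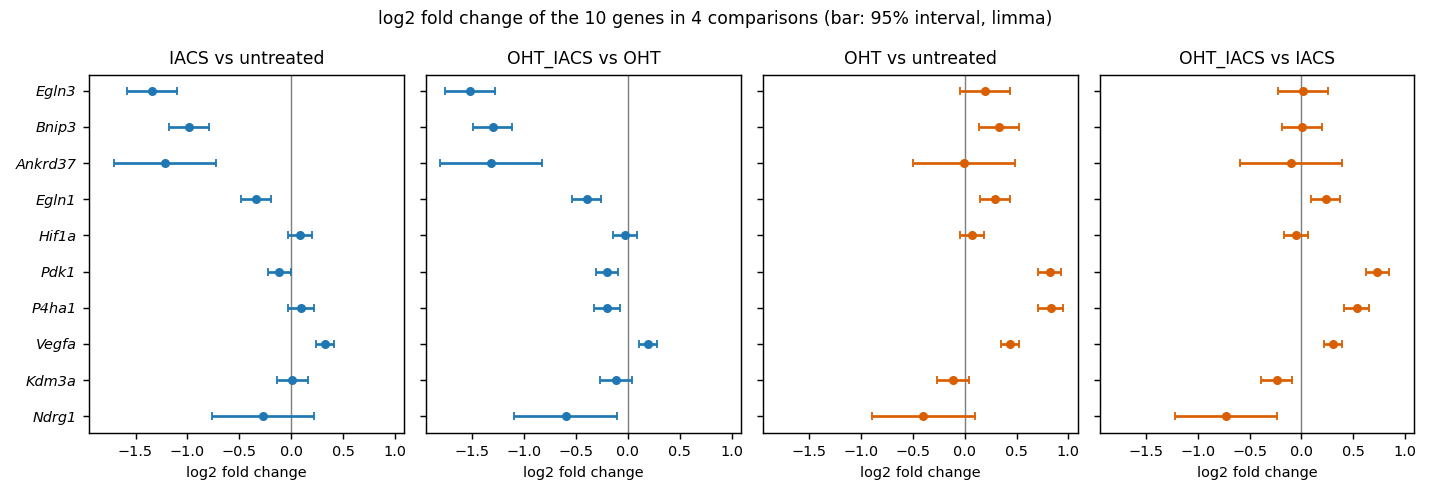
Log2 fold change of the 10 genes in 4 comparisons, with 95% intervals from limma (3 libraries a group). In both comparisons of IACS-010759 Egln3, Bnip3 and Ankrd37 lie furthest to the left, and in both comparisons of OHT Pdk1 and P4ha1 lie furthest to the right.

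Whether the response to IACS-010759 differed with OHT was tested as an interaction, (OHT_IACS - OHT) - (IACS - untreated). The contrasts behind the choice of genes enter this difference, so its p-values for the 10 genes are a description and no independent test. None of the 10 genes passed in limma after adjustment, where 14 of 9745 genes (0.144%) did. At an unadjusted p under 0.05 there were 1240 genes in all and 3 of the 10, and limma voom on the recovered reads also called 0 of the 10. The 3 were P4ha1 (log2 -0.30 ± 0.08, unadjusted p = 0.0026, adjusted p = 0.17), Bnip3 (log2 -0.32 ± 0.13, 0.024 and 0.32) and Vegfa (log2 -0.13 ± 0.06, 0.038 and 0.36). For Egln3 the interaction was -0.18 with an interval of -0.52 to 0.16 (adjusted p = 0.65), and for Ankrd37 -0.10, from -0.79 to 0.60 (adjusted p = 0.92). With library weights P4ha1 (log2 -0.32, adjusted p = 0.013) and Bnip3 (log2 -0.41, adjusted p = 0.038) passed.

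Over the 12 libraries the log2 values of Egln3 and Bnip3 had a Pearson r of 0.967, those of Pdk1 and P4ha1 0.955, and those of Bnip3 and Ankrd37 0.896. The lowest r between any pair was -0.791, for Vegfa and Ndrg1. The 12 points share 4 treatments and so describe group differences as much as anything between libraries. Among all genes tested the 5 most like Egln3 by this measure were Tatdn2 (r = 0.982), Insig1 (0.976), Mgea5 (0.975), Pop1 (0.975) and Klf10 (0.970). Insig1, an endoplasmic reticulum protein of sterol feedback, fell by 0.88 in IACS vs untreated and by 0.79 in OHT_IACS vs OHT on the log2 scale, and Klf10, a zinc finger transcription factor, by 0.95 and 0.98. Both had been chosen for likeness to a gene that is lower there.

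The wider pathway was read from lists of known pathway genes, and these lists share genes. They too were chosen with earlier results of these data known. Most targets and oxygenases named below are the highest or lowest of the comparison described. Shares and p-values from the lists are therefore a description and no independent test. Of 67 other HIF targets 48 were tested. With IACS vs untreated 7 rose (14.6%, beside 8.15% of all genes) and 12 fell (25%, beside 7.74%), a median log2 difference of 0.01 beside 0.00 for all genes. With OHT_IACS vs OHT 5 rose (10.4%, beside 11.9%) and 13 fell (27.1%, beside 11.8%), a median of -0.06 beside -0.01. Fallen in both were 9 genes, 75% of the former list and 69.2% of the latter, and risen in both were 4, or 57.1% and 80%. These 2 comparisons share no libraries. The matching shares over all genes were not worked out, so the overlap cannot be read as particular to HIF targets.

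Ccng2, a cyclin linked to cell cycle exit, fell furthest, from an RPKM of 4.12, 3.22 and 4.54 untreated to 1.61, 1.79 and 1.86 with IACS (log2 -1.15, adjusted p = 0.00018) and by 1.36 in OHT_IACS vs OHT (adjusted p = 3.1e-05). Narf fell by 0.62 (adjusted p = 0.0033) and 0.54 (adjusted p = 0.0057). Bnip3l, the paralogue of Bnip3 and also a mitophagy receptor, and the glucose transporter Slc2a1 were looked up after their values were seen. Bnip3l was lower by 0.39 and 0.46, and Slc2a1 by 0.26 and 0.25, given for that reason as values with no p.

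In the opposite direction, Ddit4, an inhibitor of mTORC1, rose from 9.85, 8.65 and 11.1 untreated to 16.5, 17.9 and 15.6 with IACS (log2 0.73, adjusted p = 0.00026) and by 0.47 in OHT_IACS vs OHT (adjusted p = 0.0038). Nfil3, a basic leucine zipper factor, rose by 0.43 (adjusted p = 0.00075) and 0.37 (adjusted p = 0.0015). Vegfa and Ddit4 are also responsive to stress pathways that do not need HIF. Of 6 targets of the stress factor ATF4 taken as a check, 5 were tested. All 5 rose in both comparisons, beside 8.15% and 11.9% of all genes, with medians of 1.17 and 0.83. The paper had already named ATF4 as a regulator of the response to IACS-010759 in these cells, so their rise is no independent test. The part of ATF4 in the values of Vegfa and Ddit4 was not tested.

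OHT moved the 48 other targets both ways as well. In OHT vs untreated 15 rose (31.2%, beside 18.2% of all genes) and 8 fell (16.7%, beside 18.2%), with a median of 0.16 beside 0.01 for all genes. In OHT_IACS vs IACS 11 rose (22.9%, beside 12.3%) and 10 fell (20.8%, beside 14.2%), with a median of 0.05 beside 0.00. Risen in both were 10 genes, 66.7% and 90.9% of the lists, and fallen in both were 6, 75% and 60%, again without the matching shares over all genes. Mxi1, a MAX partner that opposes MYC and a HIF target, rose most, by 0.85 (adjusted p = 3.3e-07) and 0.79 (adjusted p = 1.1e-06), and was the gene most like Pdk1 (r = 0.994). Hmox1, heme oxygenase, rose by 0.58 and 0.32 (adjusted p = 0.00015 and 0.012). Car9, a carbonic anhydrase widely used as a marker of hypoxia, fell by 0.83 (adjusted p = 0.0044) and 0.74 (adjusted p = 0.012). None of the 48 passed the interaction test in limma, and voom called 0 while library weights called 7, neither with its share of all genes. Under an unadjusted p of 0.05 in limma were 7 of the 48, beside 1240 of all 9745 genes. The interaction was above 0 for 12 of the 48, with a median of -0.09 beside -0.01 for all genes.

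**Figure D4:**
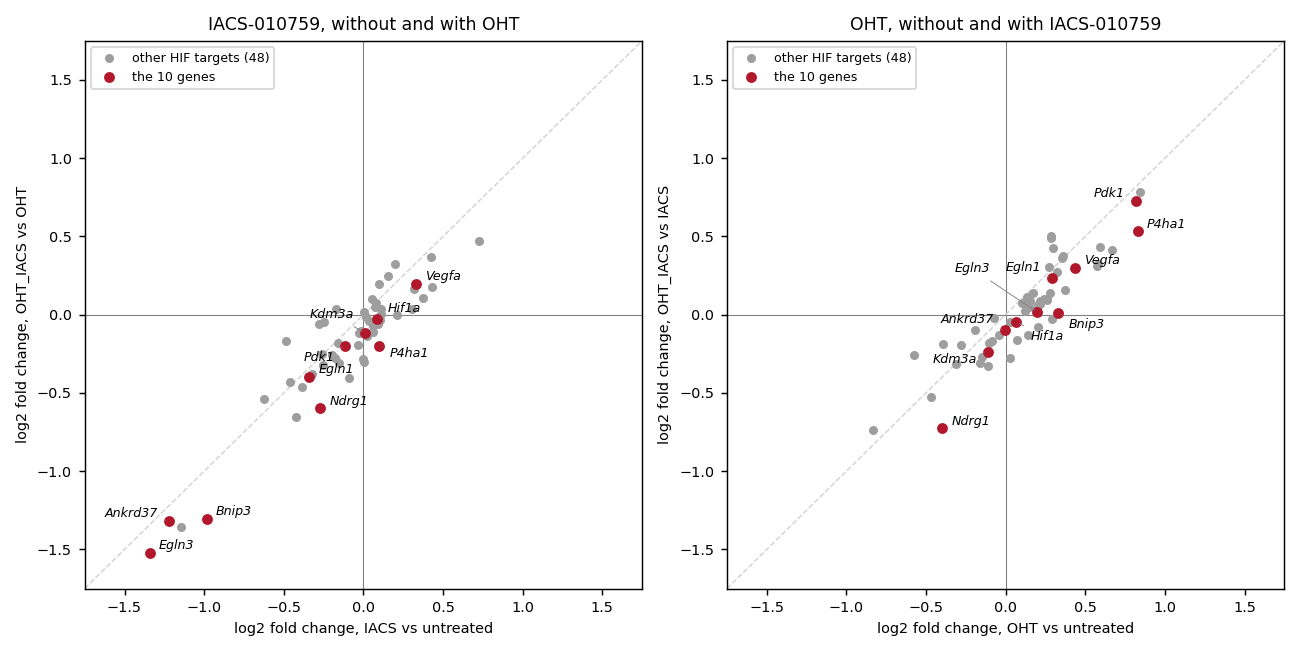
Log2 fold change of the 10 genes (red) and 48 other HIF targets (grey): IACS-010759 without OHT (x) against with OHT (y) on the left, and OHT without IACS-010759 (x) against with it (y) on the right, with the line of equality dashed. The axes of each panel share no libraries. Egln3, Ankrd37, Bnip3 and 1 grey point (Ccng2) stand apart at the lower left of the left panel, and Pdk1 and P4ha1 lie at the upper right of the right panel.

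The 20 tested HIF targets of glucose metabolism other than Pdk1, all of them also among the other HIF targets above, were called at shares near those of all genes. In IACS vs untreated 1 rose (5%, beside 8.15%) and 2 fell (10%, beside 7.74%), and in OHT_IACS vs OHT 2 rose (10%, beside 11.9%) and 2 fell (10%, beside 11.8%). In OHT vs untreated 5 rose (25%, beside 18.2%) and 4 fell (20%, beside 18.2%), and in OHT_IACS vs IACS 3 rose (15%, beside 12.3%) and 4 fell (20%, beside 14.2%). Slc2a1, Hk2, the hexokinase that traps glucose in the cell, and Gbe1 rose in both. Pfkfb3 and Pfkl, both of the phosphofructokinase step, fell in both.

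Of the other enzymes of the 2-oxoglutarate-dependent oxygenase class, to which the Egln proteins belong, 44 were tested. Plod1, Kdm4b, Kdm4c and Jmjd6 were also counted among the other HIF targets. In IACS vs untreated 4 rose (9.09%, beside 8.15% of all genes) and 7 fell (15.9%, beside 7.74%), and in OHT_IACS vs OHT 4 rose and 4 fell (9.09% each, beside 11.9% and 11.8%). The former total of 11 became 5 to 7 when untreated replicate 1, 2 or 3 or IACS replicate 1 or 3 was left out and 6 with RPKM as deposited or with the library total as a covariate. The latter total of 8 became 4 or 5 without OHT replicate 1 or OHT_IACS replicate 1 or 3, and 17 with library weights. Kdm4a, a histone demethylase, rose by 0.44 (adjusted p = 0.0029) and 0.53 (adjusted p = 0.00055), and Plod1, a procollagen lysyl hydroxylase, fell by 0.43 (adjusted p = 0.034) and 0.66 (adjusted p = 0.0026). In OHT vs untreated 7 rose (15.9%, beside 18.2%) and 4 fell (9.09%, beside 18.2%), and in OHT_IACS vs IACS 8 rose (18.2%, beside 12.3%) and 2 fell (4.55%, beside 14.2%), a total of 10 that became 6 without OHT_IACS replicate 1 and 21 with library weights. Asph, an aspartyl hydroxylase, rose most, by 0.87 (adjusted p = 4.8e-08) and 0.77 (adjusted p = 1.6e-07).

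Of the proteins that set HIF activity, 15 of 20 other than the members were tested. Egln2 and Hif1an were also counted among the oxygenases, and Cited2 and Bhlhe40 among the other HIF targets. Egln2, the remaining prolyl hydroxylase of HIF, fell by 0.25 in OHT vs untreated (adjusted p = 0.015) and by 0.27 in IACS vs untreated (adjusted p = 0.02), from 22.3, 23.4 and 25.0 to 19.7, 21.2 and 19.5 and to 21.3, 21.4 and 17.3. It was not called in OHT_IACS vs OHT (log2 -0.08, adjusted p = 0.47) or in OHT_IACS vs IACS (log2 -0.05, adjusted p = 0.62). Vhl fell by 0.20 (adjusted p = 0.022) in IACS vs untreated and by 0.17 (adjusted p = 0.035) in OHT_IACS vs OHT, its IACS libraries at 12.2, 12.5 and 10.6 beside 12.9, 13.3 and 13.4 untreated. Hif1an, the asparaginyl hydroxylase of HIF, and Arnt were not called in any comparison. Epas1, the other main alpha subunit, was at most 0.0385 in any library and was not tested. In OHT vs untreated 1 regulator rose (6.67%, beside 18.2% of all genes) and 2 fell (13.3%, beside 18.2%), in IACS vs untreated 2 rose and 2 fell (13.3% each, beside 8.15% and 7.74%), in OHT_IACS vs OHT 3 rose and 3 fell (20% each, beside 11.9% and 11.8%), and in OHT_IACS vs IACS 1 rose and 1 fell (6.67% each, beside 12.3% and 14.2%). None passed for the interaction in limma, with 1 under an unadjusted p of 0.05 and 0 called by voom. The totals of 3, 4, 6 and 2 moved when single libraries were left out, the first being 0 without untreated replicate 3 or OHT replicate 3, 1 without untreated replicate 1 and 5 without OHT replicate 2, the second 1 without untreated replicate 2 or 3 or IACS replicate 3, the third 2 or 3 without OHT replicate 1 or 3 or OHT_IACS replicate 1, and the last 1 without any 1 of IACS replicates 1 and 3 and OHT_IACS replicates 1 and 2.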

How the data were processed

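RNA-seq of rRNA-depleted total RNA from 12 libraries of FLMycER cells was analysed, 3 biological replicates in each of 4 groups. The submitters' processing notes name mm9, TopHat2 2.0.8, SAMtools, featureCounts 1.4.5-p1 and DESeq2. The authors deposited RPKM per gene, and the DESeq2 results in the same table (log2 fold change and adjusted p-value for 3 comparisons) were not used here. Whether counting used the strand is not given in the sources used here.

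Each RPKM column was a whole multiple of 1 read for 15451 of 15451 genes above 0 (to within 0.01 reads or closer), which gave the reads and totals. RPKM values were scaled by median ratios (factors 0.974 to 1.026) and tested as log2(RPKM + 0.1) with limma 3.58.1 in R 4.3.3 (12 libraries in 1 fit, mean-variance trend, 2-sided, Benjamini-Hochberg over 9745 genes), so fold changes of low genes are understated. RPKM was at least 1 in at least 3 libraries. Steps were tested on simulated data. Promoters were matched by symbol to RefSeq, taking the most upstream start.

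The 10 genes and all lists were chosen with earlier results of these data known. The genes named are those 10, Egln2, Hif1an, Vhl, Epas1 and Arnt, the 3 highest and 3 lowest called values without overlap among other HIF targets and oxygenases (of which the text gives a selection), and the 5 genes most like Egln3. Hk2, Pfkfb3, Pfkl, Bnip3l and Slc2a1 were added after values were seen. P-values measure the spread between these libraries. Alternatives covered 24 settings, 12 of them leaving out a library.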

Additional observations from a re-analysis of the deposited data

How the results depend on the processing

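Pdk1, P4ha1 and Vegfa stayed past the threshold in both OHT comparisons under all 24 settings, and the differences of Egln3, Bnip3 and Ankrd37 under IACS-010759 stayed below 0 in every setting that could be fitted. Library weights (limma arrayWeights, which stopped before convergence) called 8 of the 10 genes in OHT vs untreated and 2 for the interaction, in place of 5 and 0, and the cause was not tested. Shares of all genes called are given only for the limma fit without alternatives. Counts under any other setting therefore cannot be read as particular to the genes listed. In OHT_IACS vs IACS the number called ran from 3 to 6 when 1 library was left out.

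The replicate numbers did not pair the libraries: of 18 same-number pairs only 1 had deviations correlated above 0.1 (range -0.172 to 0.104). With a replicate block the calls were 5 in OHT vs untreated, 5 in IACS vs untreated, 7 in OHT_IACS vs OHT, 6 in OHT_IACS vs IACS and 0 for the interaction, the same numbers as without it.

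Signs turned only for values near 0 that were not called. With library weights the log2 difference in OHT_IACS vs IACS was -0.0779 for Egln3, -0.0164 for Bnip3 and 0.0838 for Ankrd37, and the interaction of Ankrd37 was 0.205. With voom on recovered reads Egln3 was -0.00222 in OHT_IACS vs IACS. In OHT vs untreated Ankrd37 was 0.0182 with RPKM as deposited, 0.0855 with quantile normalization and 0.0138 with voom, and with the library total as a covariate Hif1a was -0.0148 and Kdm3a 0.00336. Leaving out 1 library at a time gave, in OHT_IACS vs IACS, -0.128 to 0.0987 for Egln3, -0.0679 to 0.0912 for Bnip3 and -0.364 to 0.0697 for Ankrd37, in OHT vs untreated -0.183 to 0.102 for Ankrd37, and for the interaction -0.111 to 0.0217 for Egln1 and -0.362 to 0.0826 for Ankrd37. The cause was not tested.

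Library weights also raised the calls in OHT vs untreated to 35 of 48 other HIF targets, 19 of 44 oxygenases and 5 of 15 regulators, and those of the oxygenases to 17 in OHT_IACS vs OHT, 21 in OHT_IACS vs IACS and 2 for the interaction, where 1 regulator was called. The share of all genes called with library weights is not given, so whether these rises exceed it cannot be said. Regulator counts became 1 in OHT vs untreated with only the compared groups or with the library total as a covariate, 2 in IACS vs untreated and 1 in OHT_IACS vs IACS with RPKM as deposited, and in OHT_IACS vs OHT 3 with no mean-variance trend and 2 with only the compared groups. Oxygenase calls in IACS vs untreated became 6 with RPKM as deposited or the library total as a covariate. A pseudocount of 1 shrank low genes, Ankrd37 to -0.81 in IACS vs untreated. A minimum RPKM of 5 removed Ankrd37 and Ndrg1. With 9 reads at the least, depth limits Ankrd37 and Ndrg1 most.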
